A study of Arabidopsis thaliana with 8 samples.

Results

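Cytochrome P450 genes were followed in shoots of Arabidopsis thaliana given a synthetic cytokinin. The members are the probe sets to which the array's annotation gives 1 gene with a P450 family symbol, that is CYP, a family number, a subfamily letter and a gene number. This rule found 23 genes among the 22810 probe sets of the table, each with 1 probe set. By family number, 19 belong to family 71, all of them in subfamily 71B, and families 51, 78, 79 and 84 have 1 member each (CYP51G2, CYP78A9, CYP79A2 and CYP84A4). The RefSeq table for the species names 236 P450 genes by the same rule, so the members are a small and uneven part of the superfamily, and the P450 genes of cytokinin hydroxylation (CYP735A) and abscisic acid breakdown (CYP707A) were not analysed here.

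RNA from 8 samples was measured on single-colour Affymetrix arrays, in 4 groups of 2. Mutant seedlings (arr1,10,12, mutant in the type-B response regulators ARR1, ARR10 and ARR12) and wild-type seedlings, all 14 days old and grown in continuous light, were moved to a liquid medium that held either the cytokinin benzyladenine (BA, 10 µM) or its solvent, DMSO, for 1 h. The groups are BA-treated mutant, DMSO-treated mutant, BA-treated wild type and DMSO-treated wild type. The labels call the tissue seedling, whereas the treatment protocol states that roots were cut off and only shoots kept.

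P450 enzymes are heme proteins that insert oxygen into small molecules, in plants mostly at the endoplasmic reticulum with electrons from NADPH-cytochrome P450 reductase. Family 71 and its relatives act largely in specialised metabolism, while smaller families make or inactivate hormones, sterols and cell wall precursors. Type-B response regulators are transcription factors that the cytokinin phosphorelay activates, so a cytokinin response that needs them should be weaker or absent in the mutant. The comparisons ask which P450 transcripts respond to BA, whether that response differs between the genotypes, and which differ between mutant and wild type within a treatment.

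The deposited value of a probe set is a ratio with no unit, relative to its own median over the 8 arrays for most probe sets and apparently to a common floor for dim ones. Values can be compared between arrays, not between genes. Mutant DMSO replicate 1 stood apart. The log2 ratio of 5′ to 3′ control probe sets (median of 6 pairs) was -1.51 there and -0.01 to 0.15 on the other arrays. Because the deposited values are scaled per probe set, this ratio compares arrays and is not an absolute measure of RNA integrity. Of all probe sets, 3.34% differed over 2-fold between replicates in the BA-treated mutant, 0.972% in BA-treated wild type and 0.747% in DMSO-treated wild type. Mutant DMSO replicate 1 differed so from its group mate in 17.9%. It also carries a file-name prefix of its own, while the other 3 mutant arrays share another and the 4 wild-type arrays yet another, so genotype and prefix cannot be told apart. Each comparison is given for all 8 arrays and for the 7 without this array, in which mutant DMSO replicate 2 stands alone and is assumed to vary like the other groups. A gene is said to have passed, or to have risen or fallen, at an adjusted p under 0.05 in limma with Benjamini-Hochberg adjustment over 22746 probe sets, and each standard error (SE) comes from the 7-array fit where 8 arrays are not named. The 3 mutated genes have 0 named probe sets, so the genotype was not checked at them. Of the 8 shoot markers chosen, LHCB4.1, a light-harvesting protein of photosystem II, was the 1 with a named probe set, and it lay between 0.851 and 1.14 on all arrays. The root-hair expansins EXPA7 and EXPA18, the 2 root markers of 8 with a named probe set, summed to 0.708 to 1.74 on the mutant arrays and 2.39 to 3.75 on the wild-type arrays.

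Of the 23 genes, 12 had a median of 1 over the arrays and 11 were dim, with medians of 0.498 to 0.915. Most of the dim genes varied little. Their highest value was 1.35 times the lowest in the median gene, and over 2 times in 2 genes, CYP71B24 and CYP71B36. Among the other 12 it was 2.71 times in the median gene and over 2 times in 10 genes. The widest spread was that of CYP71B23, at 4.68 times. RefSeq classes 2 of the dim genes, CYP51G2 and CYP71B27, as transcribed pseudogenes, and the symbol of another dim gene, CYP71B30P, marks it as a pseudogene although its RefSeq class is protein coding. No member was more than 2-fold apart between the replicates of either wild-type group. In the mutant, 2 members were so under BA (CYP71B22 and CYP71B23) and 4 under DMSO (CYP71B6, CYP71B26, CYP71B36 and CYP71B37), the last 4 all higher on replicate 1.

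In wild type, BA for 1 h raised CYP84A4 and lowered CYP71B26 in the 7-array fit. CYP84A4 is a paralogue of ferulate 5-hydroxylase and acts in the synthesis of arabidopyrones, pyrones made from phenylalanine. Its ratio was 1.49 and 1.74 on the BA arrays, against 0.708 and 0.787 on the DMSO arrays. Both BA arrays lay well above both DMSO arrays, and BA raised the gene 2.16-fold (log2 change of 1.11 ± 0.14, SE, limma adjusted p = 0.0194 with 7 arrays and 0.164 with 8).

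CYP71B26 was at 0.801 and 0.674 with BA and at 1.99 and 1.67 with DMSO. Again the groups did not overlap. It was 2.48-fold lower with BA (-1.31 ± 0.18, SE, limma adjusted p = 0.0216 with 7 arrays and 0.388 with 8). In bulk RNA, fewer cells that express a gene and less RNA per cell cannot be told apart. Neither gene passed without any 1 of the 4 wild-type arrays, with limma adjusted p of 0.0634 to 0.156 for CYP84A4 and 0.0717 to 0.167 for CYP71B26, while both passed in a fit to the 4 wild-type arrays, all of 1 prefix (limma adjusted p = 0.0171 and 0.0144).

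The 2 genes that passed are 1 higher and 1 lower of 23, where 0.844% of all probe sets were higher and 1.42% lower in the same fit. With 8 arrays 0 members passed (limma, 3 at an unadjusted p under 0.05), where 0.0220% of all probe sets did and 7.24% had an unadjusted p under 0.05. Array weights let 2 members pass, and the share of all probe sets in that weighted fit was not counted. Over the 23 genes the median log2 change was -0.10, against -0.04 over all probe sets, and 17 were negative, a count that quantile normalization lowered to 13. Arrays of the 2 wild-type groups did not overlap for 3 members that were higher and 7 that were lower with BA, beside 20.6% and 29.2% of all probe sets.

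CYP71B35, named after its values were seen, came next. It was at 0.698 and 0.670 with BA and at 1.06 and 1.99 with DMSO. The BA arrays were close together and the DMSO arrays far apart, and the change of -1.09 ± 0.32 did not pass (limma adjusted p = 0.164, 7 arrays). CYP71B5 (-0.46 ± 0.20) and CYP71B36 (-0.30 ± 0.14) also had both BA arrays below both DMSO arrays without passing (limma adjusted p = 0.346 and 0.397, 7 arrays). CYP78A9, with 0.790 and 0.729 under BA and 0.770 and 0.739 under DMSO, differed by 0.01 ± 0.15.

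**Figure D1:**
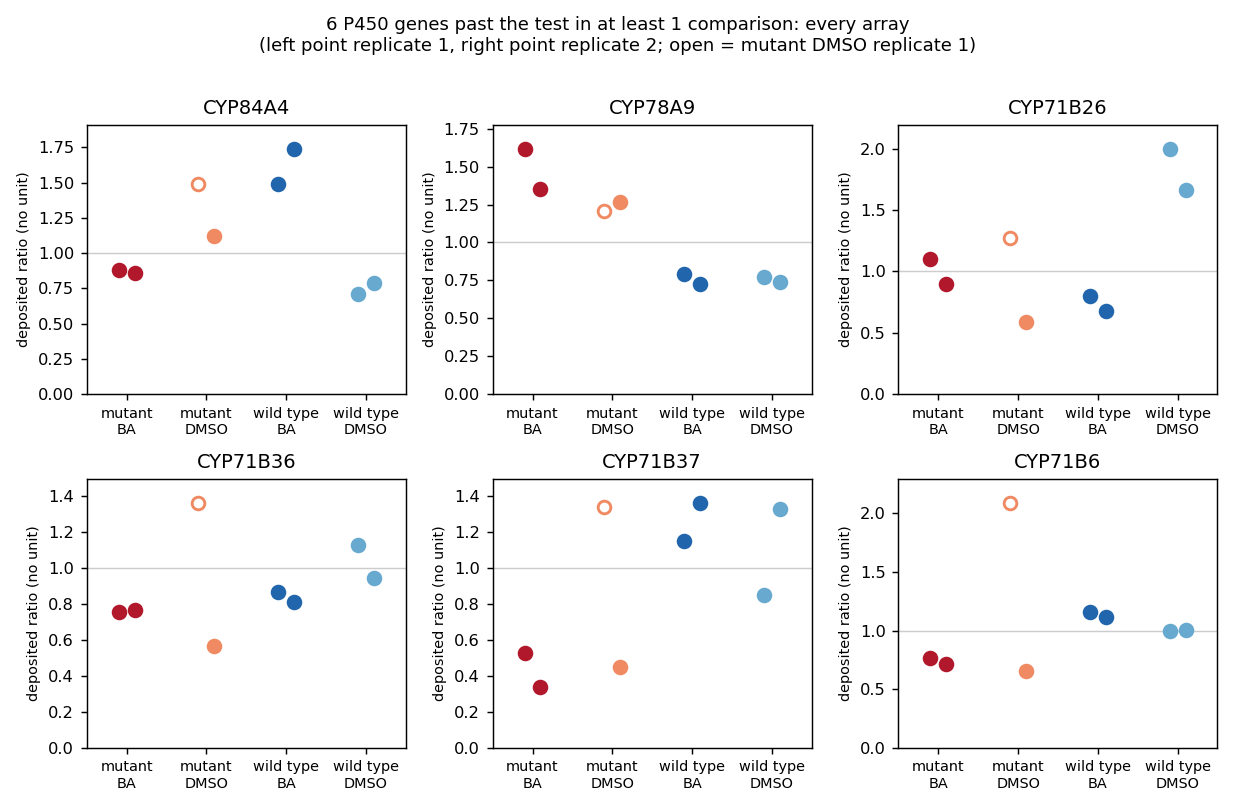
Deposited ratio (vertical axis, no unit, from 0) on each of the 8 arrays for the 6 P450 genes that passed in at least 1 comparison, with replicate 1 at the left and replicate 2 at the right of each group and mutant DMSO replicate 1 drawn open. CYP84A4 was at 1.49 and 1.74 in BA-treated wild type, against 0.708 and 0.787 in DMSO-treated wild type, and CYP78A9 was at 1.21 or more on the 4 mutant arrays and at 0.790 or less on the 4 wild-type arrays.

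In the mutant no member passed for BA. With 8 arrays 0 members passed (limma, 1 at an unadjusted p under 0.05, 0 with array weights), beside 0% of all probe sets and 5.34% at an unadjusted p. With 7 arrays 0 members passed (limma, 2 at an unadjusted p under 0.05), beside 0.0352% and 6.47%. Arrays of the 2 mutant groups did not overlap for 3 members that were higher and 3 that were lower with BA, beside 14.1% and 15.1% of all probe sets. CYP84A4 was at 0.882 and 0.859 with BA, against 1.49 and 1.12 with DMSO. These groups did not overlap, and they lay in the order opposite to that in wild type. Its change of -0.57 ± 0.19 with 8 arrays (limma adjusted p = 0.709) and -0.36 ± 0.18 with 7 (0.856) did not pass.

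CYP71B26 was at 1.11 and 0.895 with BA and at 1.27 and 0.585 with DMSO. The 2 DMSO arrays lie on either side of the BA arrays, so the size of its change depends on them: 0.20 with 8 arrays and 0.77 ± 0.22 with 7 (limma adjusted p = 0.462). CYP71B36 had 0.754 and 0.768 with BA and 1.36 and 0.568 with DMSO, for a change of 0.42 ± 0.18 with 7 arrays (limma adjusted p = 0.771). CYP71B28 (0.36 ± 0.20) and CYP71B38 (-0.23 ± 0.16) were the others among the 5 lowest p with 7 arrays, and CYP71B34 (0.32 ± 0.18), CYP78A9 (0.25 ± 0.15), CYP71B37 (-0.88 ± 0.53) and CYP71B29 (0.51 ± 0.35) among the 5 with 8 arrays, with SEs of that fit.

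The mutant DMSO arrays decide this comparison. When replicate 2 rather than replicate 1 was left out, 5 members passed, CYP71B29 as higher with BA (0.98) and CYP71B6 (-1.50), CYP71B37 (-1.67), CYP71B36 (-0.84) and CYP84A4 (-0.78) as lower, with limma adjusted p of 0.00230 to 0.0448. In that fit 11.7% of all probe sets were higher and 12.4% lower. In the 7-array fit, which keeps replicate 2, the same 5 genes were at 0.04, 0.16, -0.09, 0.42 and -0.36. CYP71B6 and CYP71B36 changed sign between the DMSO arrays, and CYP71B29, CYP71B37 and CYP84A4 did not.

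**Figure D2:**
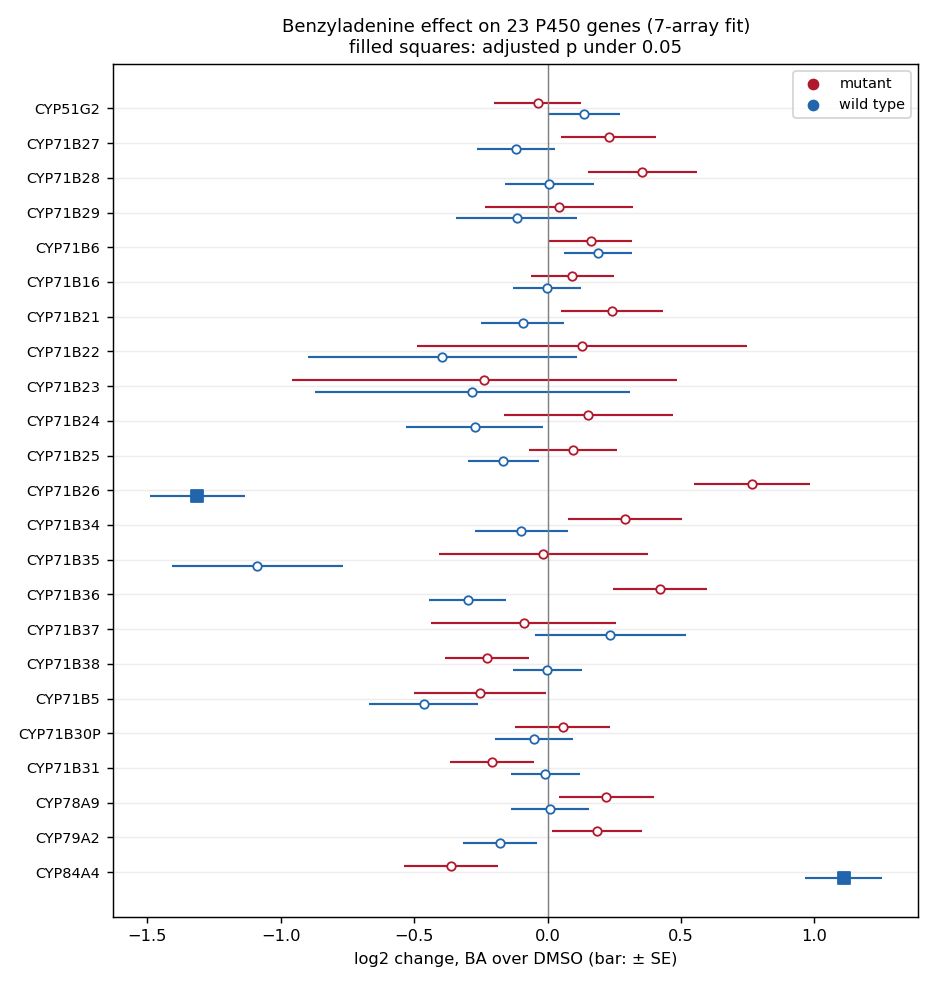
Log2 change with BA over DMSO (horizontal axis, bars ± SE, 7-array fit) for the 23 P450 genes, ordered by family and locus, in the mutant (red, upper point) and in wild type (blue, lower point), with filled squares for genes that passed. In wild type CYP84A4 stands at 1.11 and CYP71B26 at -1.31, whereas in the mutant they are at -0.36 and 0.77 and no gene passed.

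Tested directly, the BA response of CYP71B26 differed between the genotypes in the 7-array fit. The difference, mutant minus wild type, was 2.08 ± 0.28 (log2, limma adjusted p = 0.0455) with 7 arrays and 1.51 ± 0.51 (limma adjusted p = 0.518) with 8. CYP71B26 was the 1 member of 23 that passed, where 0.193% of all probe sets passed with a positive difference and 0.259% with a negative one. It no longer passed without mutant BA replicate 1 (limma adjusted p = 0.0539) or any 1 of the 4 wild-type arrays (0.0918 to 0.210). The call was also lost with an offset of 1 (limma adjusted p = 0.0607), after quantile normalization (0.0535) and with the replicate block (0.0858). With only mutant DMSO replicate 1 kept, the difference was 0.95 (limma adjusted p = 0.0567), so the call was lost in 9 of 13 alternatives. In that last fit CYP71B5 passed with a positive difference and CYP71B37, CYP71B6 and CYP84A4 with a negative one, beside 10.8% and 10.0% of all probe sets.

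CYP84A4 had the largest difference in the other direction, -1.47 ± 0.23 with 7 arrays (limma adjusted p = 0.0617) and -1.68 ± 0.27 with 8 arrays (SE with 8 arrays, adjusted p = 0.255), and did not pass in either. It passed with only mutant DMSO replicate 1 kept (-1.89, limma adjusted p = 0.00381), after quantile normalization of the 7 arrays (-1.53, limma adjusted p = 0.0481), and without BA-treated mutant replicate 2 (-1.45, limma adjusted p = 0.0477). Among the rest, CYP71B36 (0.72 ± 0.23) and CYP71B35 (1.07 ± 0.51) were the nearest (limma adjusted p = 0.287 and 0.494, 7 arrays). With 8 arrays 0 members passed (limma, 2 at an unadjusted p under 0.05, 0 with array weights), beside 0% of all probe sets and 8.66% at an unadjusted p.

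Under BA, 4 P450 genes differed between mutant and wild type in the 7-array fit, CYP78A9 as higher in the mutant and CYP84A4, CYP71B37 and CYP71B6 as lower. CYP78A9, which promotes the growth of fruits and seeds, was at 1.61 and 1.35 in the BA-treated mutant, against 0.790 and 0.729 in BA-treated wild type. It was 1.95-fold higher (0.96 ± 0.15, SE, limma adjusted p = 0.0140 with 7 arrays and 0.0987 with 8), the lowest p of any member in this comparison in both fits.

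CYP84A4 was at 0.882 and 0.859 in the mutant and at 1.49 and 1.74 in wild type. The groups were apart by more than either pair's own gap, and it was 1.85-fold lower in the mutant (-0.89 ± 0.14, SE, limma adjusted p = 0.0167 with 7 arrays). The BA-treated wild-type arrays also enter the BA comparison within wild type, where the same gene rose.

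CYP71B37, of subfamily 71B, was at 0.526 and 0.337 in the mutant and at 1.15 and 1.36 in wild type. It was 2.97-fold lower, the largest difference of the 4 (-1.57 ± 0.28, SE, limma adjusted p = 0.0235 with 7 arrays). CYP71B6, which converts indole-3-acetonitrile on the way to indole-3-carboxylic acid, a defence compound, was at 0.764 and 0.711, against 1.16 and 1.12 in wild type, and was 1.55-fold lower (-0.63 ± 0.13, SE, limma adjusted p = 0.0331 with 7 arrays). Both pairs of arrays were close together for CYP71B6. With 8 arrays its SE was 0.48 and its limma adjusted p 0.582, against 0.308 for CYP71B37 and 0.173 for CYP84A4. Mutant DMSO replicate 1 is in neither group here, and it acts through the spread that all groups share.

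The 4 genes are 1 higher and 3 lower of 23, where 4.12% of all probe sets were higher and 3.56% lower (2.82% and 4.12% after quantile normalization). With 8 arrays 0 members passed (limma, 4 at an unadjusted p under 0.05), beside 0.141% of all probe sets and 13.2% at an unadjusted p. Array weights let 3 members pass, and the share of all probe sets in that weighted fit was not counted. The BA arrays of the genotypes did not overlap for 12 members that were higher and 4 that were lower in the mutant, beside 41.1% and 18.4%. No member passed without BA-treated wild-type replicate 1 or 2, and CYP71B6 also did not pass without either DMSO-treated wild-type array or without BA-treated mutant replicate 2 (limma adjusted p for CYP71B6 of 0.0708 to 0.178 over these 5 settings). CYP71B6 was also lost with the replicate block (limma adjusted p = 0.0711). The 2 root markers did not pass in this comparison (EXPA7 -1.58 ± 0.41 and EXPA18 -1.31 ± 0.43, limma adjusted p = 0.0699 and 0.121), and their part in the differences of the P450 genes was not tested.

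**Figure D3:**
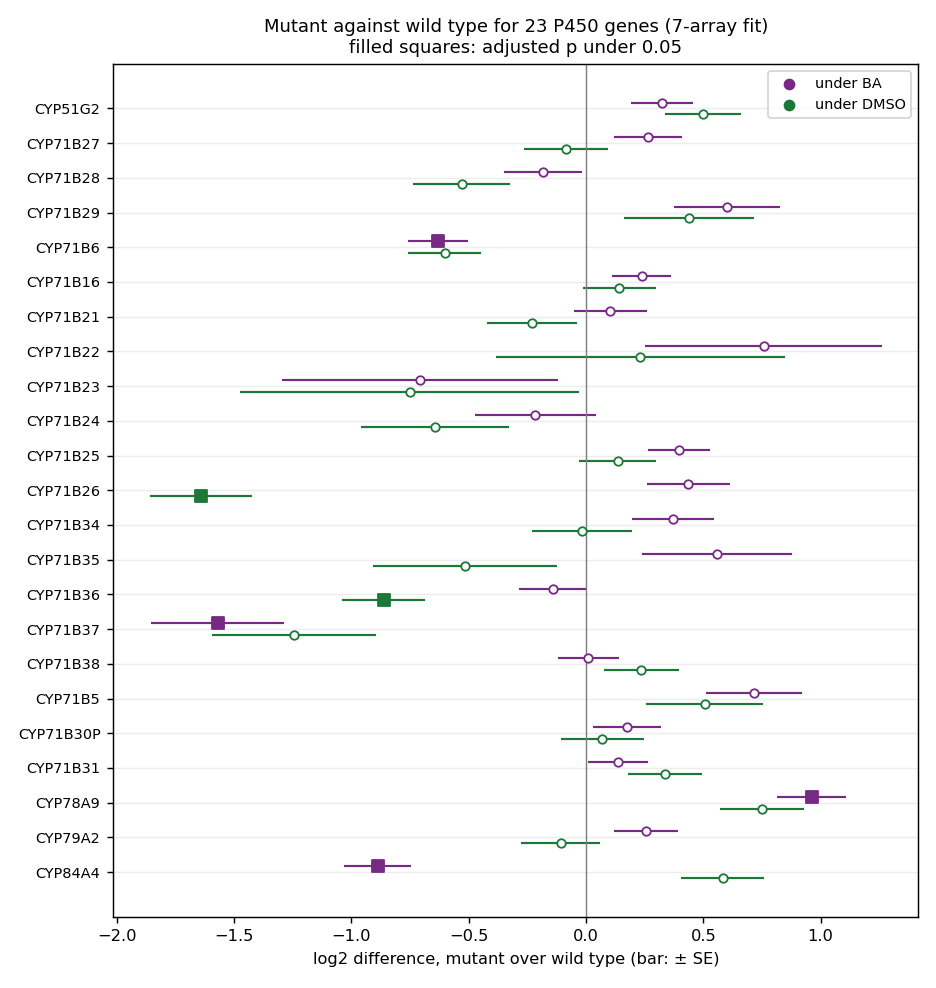
Log2 difference of mutant over wild type (horizontal axis, bars ± SE, 7-array fit) for the 23 P450 genes, under BA (purple, upper point) and under DMSO (green, lower point), with filled squares for genes that passed. CYP78A9 lies at 0.96 and 0.75, CYP71B37 at -1.57 and -1.24, and CYP84A4 on opposite sides of 0, at -0.89 and 0.58.

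Under DMSO, CYP71B26 and CYP71B36 were lower in the mutant in the 7-array fit. CYP71B26 was at 1.27 and 0.585 in the mutant, against 1.99 and 1.67 in wild type. Both mutant arrays lay below both wild-type arrays, and the 7-array difference, which uses the array at 0.585, was -1.64 ± 0.22 (SE, 3.12-fold lower, limma adjusted p = 0.0161). With 8 arrays it was -1.08 ± 0.36 (adjusted p = 0.297), and with only mutant DMSO replicate 1 kept it was -0.52 (adjusted p = 0.137). The DMSO-treated wild-type arrays also enter the BA comparison within wild type, in which the gene fell.

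CYP71B36, which is dim, was at 1.36 and 0.568 in the mutant and at 1.13 and 0.946 in wild type. The mutant arrays lie on either side of the wild-type arrays. Its difference of -0.86 ± 0.18 with 7 arrays (limma adjusted p = 0.0483) was -0.23 ± 0.38 with 8 arrays and 0.40 with only mutant DMSO replicate 1 kept. The call for CYP71B36 therefore rests on mutant DMSO replicate 2 alone.

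CYP71B6 shows the same dependence without having passed. It was at 2.09 and 0.659 in the mutant and at 0.996 and 1.00 in wild type, a difference of -0.60 ± 0.16 with 7 arrays (limma adjusted p = 0.0914) and 1.06 with only mutant DMSO replicate 1 kept (limma adjusted p = 0.00630). CYP71B37 had 1.34 and 0.448 in the mutant and 0.850 and 1.32 in wild type (-1.24 ± 0.35, limma adjusted p = 0.110, 7 arrays).

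For CYP78A9 and CYP84A4 both mutant DMSO arrays lay above both wild-type DMSO arrays. CYP78A9 was at 1.21 and 1.27, against 0.770 and 0.739 in wild type, a difference of 0.75 ± 0.18 (limma adjusted p = 0.0743 with 7 arrays and 0.169 with 8). CYP84A4 was at 1.49 and 1.12, against 0.708 and 0.787, a difference of 0.58 ± 0.18 (limma adjusted p = 0.131 with 7 arrays and 0.199 with 8). Neither passed in either fit. With only mutant DMSO replicate 1 kept, the differences were 0.68 for CYP78A9 and 1.00 for CYP84A4, so the direction was the same with each mutant DMSO array. In that fit these and CYP71B6 were the 3 members that passed, all higher in the mutant, beside 12.5% of all probe sets higher and 10.8% lower.

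In all, 2 members were lower and 0 higher of 23 with 7 arrays, where 1.89% of all probe sets were lower and 2.33% higher. After quantile normalization these shares were 1.85% and 0.914%. With 8 arrays 0 members passed (limma, 4 at an unadjusted p under 0.05, 0 with array weights), beside 0.00879% of all probe sets and 13.5% at an unadjusted p. The DMSO arrays of the genotypes did not overlap for 9 members that were higher and 4 that were lower in the mutant, beside 29.4% and 13.8%. Neither CYP71B26 nor CYP71B36 passed without DMSO-treated wild-type replicate 1 or 2 (limma adjusted p = 0.0835 to 0.159), and CYP71B36 also did not pass without either BA-treated wild-type array (0.102), with an offset of 1 (0.0657), after quantile normalization (0.0519) or with the replicate block (0.126). EXPA7 differed by -1.59 ± 0.51 and EXPA18 by -1.40 ± 0.52 under DMSO (limma adjusted p = 0.148 and 0.210, 7 arrays), and their part in these values was not tested.

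Over both treatments, 5 members had all 4 mutant arrays above all 4 wild-type arrays, beside 10.6% of all probe sets, and 0 had them all below, beside 3.04%. Without mutant DMSO replicate 1 the counts were 7 higher, with CYP71B5 and CYP71B29 added, beside 17.5%, and 3 lower (CYP71B36, CYP71B37 and CYP71B6), beside 8.05%. CYP78A9 spanned 1.21 to 1.61 in the mutant and 0.729 to 0.790 in wild type. The pseudogene CYP51G2, a relative of the sterol 14-demethylase CYP51G1, spanned 0.790 to 0.917 in the mutant and 0.625 to 0.699 in wild type. The others were CYP71B25, CYP71B16 and CYP71B31, which are dim, as is CYP51G2. After quantile normalization 3 of the 5 still did not overlap (CYP78A9, CYP51G2 and CYP71B25), beside 6.88% of all probe sets.

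Of the 19 members of subfamily 71B, 11 lie in a run of neighbouring genes on chromosome 3, between the loci AT3G26150 and AT3G26330. RefSeq names 18 P450 genes, all of subfamily 71B, among the 24 annotated genes of that run, and 11 of the 18 have a value here. All 11 probe sets carry the plain suffix that the array's maker gives to sets designed for a single transcript, and cross-reaction between such close relatives was not tested. In wild type the BA change ranged from -1.31 for CYP71B26 to 0.24 ± 0.28 for CYP71B37.

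CYP71B34, CYP71B35, CYP71B36 and CYP71B37 are consecutive, and with BA in wild type their changes were -0.10, -1.09, -0.30 and 0.24 (7 arrays). CYP71B35 and CYP71B36 had both BA arrays below both DMSO arrays, and CYP71B34 and CYP71B37 did not. Between mutant and wild type under DMSO the 4 differed by -0.02, -0.51, -0.86 and -1.24, and under BA by 0.37, 0.56, -0.14 and -1.57 (7 arrays). Elsewhere in the run, CYP71B22 and CYP71B23 had the least repeatable values, with 0.696 and 2.34, and 0.318 and 1.29, on the 2 BA-treated mutant arrays. Neither passed in the 8-array or 7-array fit. Under BA, CYP71B22 differed by 1.63 between mutant and wild type without BA-treated mutant replicate 1, and CYP71B23 by -1.72 without replicate 2. Each value rests on 1 mutant array that was far from its mate.

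**Figure D4:**
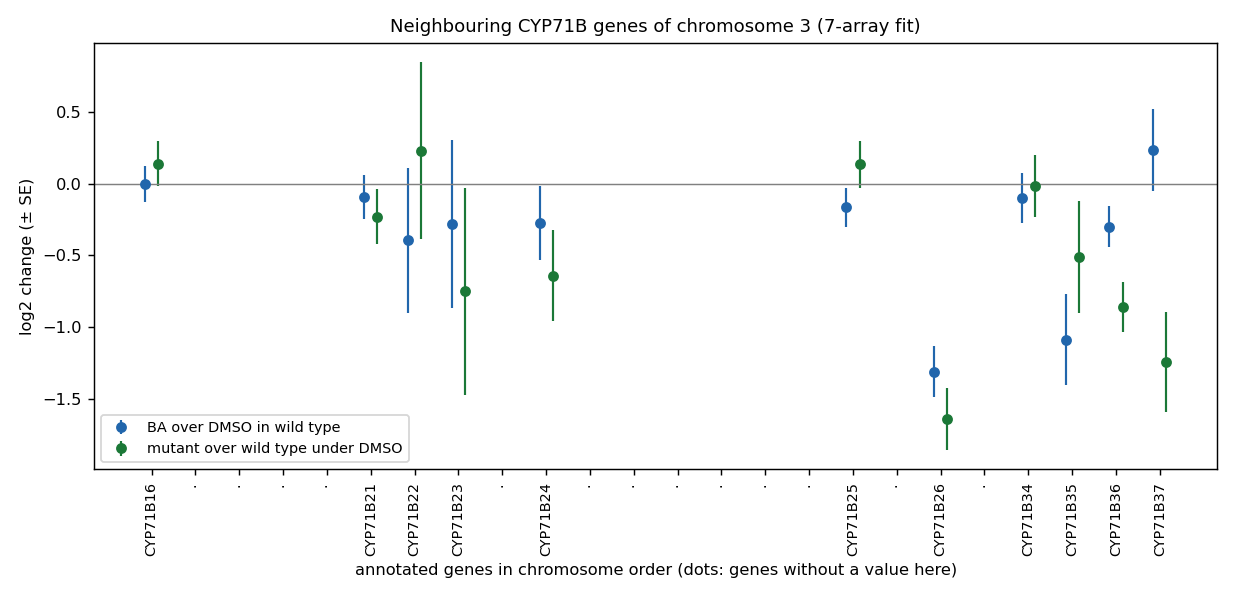
Log2 change (vertical axis, bars ± SE, 7-array fit) of the 11 measured CYP71B genes in a run of 24 neighbouring genes of chromosome 3, in chromosome order, for BA over DMSO in wild type (blue) and for mutant over wild type under DMSO (green). CYP71B26 is low in both, at -1.31 and -1.64, while CYP71B37 is at 0.24 and -1.24.

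A second group of neighbours on chromosome 3, CYP71B5, CYP71B30P and CYP71B31, held 1 gene with a median of 1. CYP71B5 was at 1.30 and 1.09 in the BA-treated mutant and 0.865 and 0.606 in BA-treated wild type, a difference of 0.72 ± 0.20 that did not pass (limma adjusted p = 0.0859, 7 arrays). On chromosome 1, CYP71B27, CYP71B28 and CYP71B29 likewise held no gene that passed in the 8-array or 7-array fit. CYP79A2, the first enzyme of benzyl glucosinolate synthesis, which makes an oxime from phenylalanine, ranged from 0.564 to 0.894 over the arrays and did not pass in any comparison (-0.18 ± 0.14 with BA in wild type, 0.19 ± 0.17 in the mutant, 7 arrays).

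Little of the pathways around these enzymes could be read. Of the 18 other glucosinolate genes listed, 3 had a named probe set, and under BA 2 of the 3 were lower in the mutant (limma, 7 arrays): BCAT4, an aminotransferase of methionine chain elongation (-2.26 ± 0.27, adjusted p = 0.00711) and the glucosyltransferase UGT74B1 (-1.15 ± 0.19, adjusted p = 0.0167). Over all probe sets 3.56% were lower in that fit, and with 8 arrays neither gene passed (limma adjusted p = 0.270 for BCAT4 and 0.150 for UGT74B1). GSTU20 differed by -0.38 ± 0.21 (7 arrays). Of 13 other phenylpropanoid genes, HCT, a hydroxycinnamoyltransferase of lignin synthesis, was the 1 with a named probe set, and it did not pass (-0.52 ± 0.16 with BA in wild type, limma adjusted p = 0.192, 7 arrays). The 8 redox partners of P450 enzymes and 29 other hormone synthesis genes had no named probe set, and of the 52 P450 genes on a list of well-studied members, which leaves out CYP84A4, CYP78A9 and CYP71B6, CYP79A2 had one.

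The conjugating enzymes that often act after P450 enzymes were set beside them, by symbol, without a test of the difference. With BA in wild type 5 of 47 UDP-glycosyltransferase genes and 1 of 13 glutathione transferase genes rose and 0 fell, against 1 P450 gene that rose and 1 that fell of 23 (7 arrays), beside 0.844% and 1.42% of all probe sets. Neither family had a gene that passed with 8 arrays (limma, 0 called, 7 glycosyltransferase and 3 glutathione transferase genes at an unadjusted p under 0.05). Of all probe sets, 0.0220% passed in that fit and 7.24% had an unadjusted p under 0.05. The median log2 changes were 0.09, -0.11 and -0.10. Between the BA-treated genotypes 5 of 47, 1 of 13 and 1 of 23 were higher and 13, 3 and 3 lower in the mutant (7 arrays), beside 4.12% and 3.56% of all probe sets. None of the 3 families had a gene that passed there with 8 arrays (limma, 0 called, 18, 2 and 4 at an unadjusted p under 0.05). Of all probe sets, 0.141% passed in that comparison and 13.2% had an unadjusted p under 0.05.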

How the data were processed

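The deposited value table holds a ratio per probe set and array. Per the labels, biotin-labelled targets from total RNA were prepared as the maker of the arrays prescribes. The program that summarised probes, the background correction and the scaling were not given in the sources used here. The unit was inferred from the numbers. The log2 of the deposited ratio was fitted with limma (version 3.58.1, R 4.3.3), 1 mean per group, with empirical Bayes moderation and Benjamini-Hochberg adjustment over 22746 probe sets (64 controls left out), for 5 comparisons, in 8 and in 7 arrays (4 and 3 residual degrees of freedom). The fits were checked on simulated data. Probe sets with a median below 0.995 are called dim. Genes were named through the annotation (13513 probe sets with 1 gene) and loci through RefSeq TAIR10.1. The members and lists were chosen with earlier results of these data known. Described with values were all members that passed in any comparison (at most 12 in each direction), the 5 with the lowest p where none passed, and listed P450 genes with a role. Nothing in the labels ties the arrays to separate cultures, so p-values reflect the spread among these samples alone, which may be technical, and the number of arrays limits the precision. Alternatives were an offset of 1, quantile normalization, dim probe sets left out, array weights, a replicate block, the probe set with the lowest mean, and each array left out.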

Additional observations from a re-analysis of the deposited data

Results flagged for a closer look

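CYP71B26 is listed because its BA response differed between the genotypes by a direct test, with a difference, mutant minus wild type, of 2.08 on the log2 scale in the 7-array fit (limma adjusted p = 0.0455). With 8 arrays the difference was 1.51 and did not pass (limma adjusted p = 0.518), and the 7-array call was lost in 9 of 13 alternatives. In wild type both BA arrays were below both DMSO arrays, while in the mutant the 2 DMSO arrays, at 1.27 and 0.585, lay on either side of the BA arrays.

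CYP84A4 is listed because its arrays moved opposite ways in the genotypes: both BA arrays below both DMSO arrays in the mutant, and both above in wild type. Taken singly, 15.1% of all probe sets had such an order in the mutant and 20.6% in wild type. The share of all probe sets with both orders was not counted. The difference was -1.68 with 8 arrays and did not pass (limma adjusted p = 0.255).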

How the results depend on the processing

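With 8 arrays the count of P450 genes that passed was 0 in all 5 comparisons. Quantile normalization gave 1 for BA in wild type, beside 0.154% of all probe sets higher and 0.356% lower. It gave 1 for the genotypes under BA, beside 0.119% higher and 0.492% lower. Array weights gave 2 and 3, and the shares of all probe sets in those weighted fits were not counted. Such shares were also not counted in the fits, given next, that leave out a wild-type or a BA-treated mutant array. Leaving out each array in turn gave 0 to 2 for BA in wild type, 0 to 5 for BA in the mutant, 0 to 4 for their difference, 0 to 4 for the genotypes under BA and 0 to 3 under DMSO, the highest always without a mutant DMSO array. With 7 arrays the counts of 2, 0, 1, 4 and 2 became 0 to 2, 0, 0 to 2, 0 to 5 and 0 to 3. For the difference in BA response the offset of 1 gave 0 and the replicate block 0. For the genotypes under DMSO the offset of 1, quantile normalization, the replicate block and leaving out dim probe sets, which removes CYP71B36, each gave 1. After quantile normalization of the 7 arrays the 1 gene whose BA response differed was CYP84A4, not CYP71B26. With only mutant DMSO replicate 1 kept, 5 passed for BA in the mutant and 4 for the difference in BA response, while 3 passed under DMSO, of which 0 were among the 2 of the 7-array fit (beside 11.7%, 10.8% and 12.5% of all probe sets higher and 12.4%, 10.0% and 10.8% lower), and CYP71B36 under DMSO turned to 0.40; the cause was not tested. The replicate numbers showed no sign of pairing the samples: the differences between replicates 1 and 2 correlated at -0.17 to 0.12 between groups. Such correlations cannot exclude a weak pairing. The probe set with the lowest mean changed nothing, since each member has 1 probe set. Apart from CYP71B36 under DMSO, the calls of the 7-array fit kept their direction in every alternative run. CYP84A4 with BA in wild type lay between 0.58 (offset of 1) and 1.22.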
